A study of Homo sapiens with 8 samples.

Results

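Regions of the genome that held a peak of OCAB and a peak of MTA2 but no peak of OCT2 were examined in the 697 cell line, grown from a human pre-B leukaemia. The 159806 peaks of 7 deposited lists were merged into 74123 regions wherever peaks shared at least 1 bp, and 779 regions met the rule. They made up 1.05% of all regions, 17.6% of the 4438 regions with OCAB, 2.71% of the 28742 regions with MTA2 and 33.96% of the 2294 regions with both. OCT2 was present in 11% of all regions, 20.8% of those with MTA2 and 42.2% of those with OCAB, so most regions of each kind lacked it. The members were chosen from the OCAB, MTA2 and OCT2 peaks, and all values of these 3 proteins below are therefore descriptions.

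The study used chromatin immunoprecipitation followed by sequencing (ChIP-seq), with 1 library for each of AIOLOS, IKAROS, MTA2, Mi2, HDAC2, OCAB and OCT2, and 1 input library made without antibody. All came from 697 cells in routine suspension culture with serum, with no treatment or genetic change named in the labels, so the groups compared are classes of region and not conditions of the cells. The title of the series ties MTA2, OCAB and the step from pre-B to immature B cell together, and regions with both proteins bear on that pairing. Depth ran from 10.9 M sequenced tags for HDAC2 to 23.4 M for IKAROS, with 17.6 M for OCAB, 18.3 M for OCT2 and 22.8 M for MTA2. No antibody had a second library. Intervals are therefore 95% intervals over regions, which are not replicates, and cover counting error only, and no p-value between classes was computed.

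OCAB is a B-cell coactivator with no sequence-specific DNA binding of its own. It is known for joining the POU domains of OCT1 or OCT2 on octamer DNA, and OCT1 was not among the proteins mapped. MTA2 is a subunit of NuRD, a complex that couples nucleosome remodelling by Mi2 to histone deacetylation by HDAC1 and HDAC2. IKAROS and AIOLOS are zinc-finger factors of the lymphoid lineage that can associate with NuRD.

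The regions were compact. Each of the 779 held 1 OCAB peak, and all but 2 of them held 1 MTA2 peak, the other 2 holding 2. The median width of the regions was 426 bp, with quartiles of 361 and 517.5 bp, against 448 bp in the 1515 regions with OCAB, MTA2 and OCT2. The OCAB and MTA2 peaks overlapped each other in 737 regions, by a median of 186 bp. In the other 42 they were joined only through a peak of another protein, with centres 261 to 604 bp apart.

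The limit set by the rule can turn on a few bases. Peak height below is the deposited tag number of a peak, scaled to a library of 10 M tags. The member closest to an OCT2 peak, at chr9:751053-751569 (hg19, as all positions here), ended 4 bp from an OCT2 peak of height 20.2; OCAB stood at 40.5 and MTA2 at 37.7. Just outside the rule, chr12:129325392-129326111 held an OCT2 peak of height 160.4 that overlapped no other peak by more than 22 bp; OCAB stood at 30.2 and MTA2 at 60.4. Such cases were few: 9 of the 779 members had an OCT2 peak within 200 bp, 36 (4.62%) within 1000 bp and 137 (17.6%) within 10000 bp. The median distance from a member to the nearest OCT2 peak was 60.6 kb, close to the 57.3 kb for regions of OCAB with neither MTA2 nor OCT2 and the 58.8 kb for regions of MTA2 with neither OCAB nor OCT2.

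The peaks that defined the members were lower than those in regions that also held OCT2. The OCAB height in members ran from 6.84 to 335.6, with a median of 13.7 and quartiles of 10.8 and 19.9. In regions with all 3 proteins the median OCAB height was 17.7, with quartiles of 13.1 and 28.5. MTA2 heights in members ran from 5.25 to 1065.8 with a median of 19.7, against a median of 31.1 with OCT2. The ranges of the classes overlapped almost wholly. The OCAB heights of members were like those of OCAB regions with neither MTA2 nor OCT2 (median 14.2), while their MTA2 heights stood above those of MTA2 regions with neither OCAB nor OCT2 (median 14.4).

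Members were most frequent where either peak was low. When the 2294 regions with OCAB and MTA2 were divided into 5 groups of near-equal size by MTA2 height, 53.7% of the lowest group (5.25 to 15.3) lacked OCT2. The share was 46.1%, 33.9% and 21.8% in the following groups and 13.1% in the highest (46.9 and above). By OCAB height it was 49.6% in the lowest group and 20.4% in the highest. The deposited lists hold no OCT2 value where no peak was called, so an OCT2 signal below the calling limit and no OCT2 signal cannot be told apart. In regions with all 3 proteins, OCT2 height ranked with MTA2 height (Spearman rho 0.569 over 1515 regions) and less closely with OCAB height (rho 0.353).

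The proteins of the IKAROS pair were found at most members. IKAROS was present in 675 of 779 (86.6%, Wilson interval 84.1 to 88.9), set beside 72.8% of all merged regions, 77% of regions with MTA2 and 63% of regions with OCAB. AIOLOS was present in 647 (83.1%, 80.3 to 85.5), set beside 51.4%, 70.1% and 56.9%. Both were present in 612 members (78.6%, 75.5 to 81.3), IKAROS without AIOLOS in 63 and AIOLOS without IKAROS in 35. The share with both was 60.3% in regions of MTA2 with neither OCAB nor OCT2. It was 14.5% in regions of OCAB with neither MTA2 nor OCT2, and 92.1% in regions with OCAB, MTA2 and OCT2. In all, 710 of the 779 members (91.1%) held at least 1 of the pair, a share that was not taken in the other classes.

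The other NuRD subunits mapped were found at fewer members. HDAC2, the histone deacetylase, was present in 356 (45.7%, 42.2 to 49.2), set beside 21.8% of all merged regions, 37.1% of those with MTA2 and 38.9% of those with OCAB. Mi2, the remodelling subunit, was present in 146 (18.7%, 16.2 to 21.6), set beside 13.9%, 15% and 18.4%. For Mi2 the members' share was thus close to that of OCAB regions as a whole. MTA2, HDAC2 and Mi2 were all present in 99 members (12.7%, 10.6 to 15.2), and 376 members had a called peak of neither HDAC2 nor Mi2.

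Compared with regions of OCAB, MTA2 and OCT2, the members held each of the 4 other proteins less often. Both classes enter through OCAB and MTA2. The rule does not ask for any of the 4, but their peaks took part in the merging, and OCAB and MTA2 were joined only through another peak in 42 of 779 members and 83 of 1515 regions with OCT2. In percentage points the difference was widest for HDAC2, at -32.7 (Newcombe interval -36.7 to -28.6), with 45.7% of members and 78.4% of regions with OCT2. For Mi2 the shares were 18.7% and 36.8% (-18.0 percentage points, -21.6 to -14.3). IKAROS was present in 86.6% and 96.4% (-9.72 points, -12.4 to -7.27), and AIOLOS in 83.1% and 93.5% (-10.5 points, -13.5 to -7.66). The base shares differ between proteins, and HDAC2 peaks were called at a looser limit in the shallowest library. Differences in points are therefore not on the same footing across proteins. Over the 737 members and 1432 regions with OCT2 in which OCAB and MTA2 overlapped each other, the differences were -33.4 points for HDAC2, -19.4 for Mi2, -9.80 for IKAROS and -10.5 for AIOLOS.

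**Figure D1:**
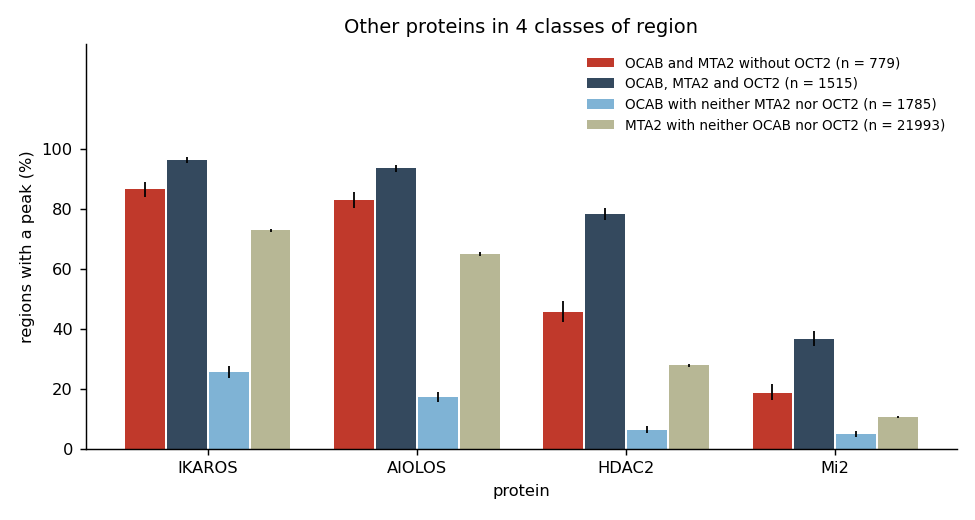
Share of regions with a peak of IKAROS, AIOLOS, HDAC2 or Mi2 (vertical axis, percent) in members and in 3 other classes of region, with 95% Wilson intervals as error bars. For every protein the members stand below regions with OCAB, MTA2 and OCT2 and above regions with OCAB or MTA2 alone of the 3; HDAC2 was present in 45.7% of members and 78.4% of regions with all 3.

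Since members had lower MTA2 peaks, the difference was also taken within the 5 groups of MTA2 height and combined with Mantel-Haenszel weights. It became -21.7 points for HDAC2 (-25.9 to -17.4), -10.4 for Mi2 (-14.2 to -6.60), -8.27 for IKAROS (-10.9 to -5.60) and -6.79 for AIOLOS (-9.70 to -3.88). The gap was smaller at matched MTA2 height, and each interval still left out 0. HDAC2 was present in 29.4% of members in the lowest group of MTA2 height, in 40.8%, 59.5% and 67.3% in the following groups and in 61.7% in the highest. In regions with OCT2 the shares along the same groups were 39.5%, 69.5%, 81.2%, 88.6% and 94.5%. The intervals of the classes were furthest apart at the tallest MTA2 peaks, at 49.0 to 72.9% for 60 members and 91.8 to 96.3% for 397 regions with OCT2.

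**Figure D2:**
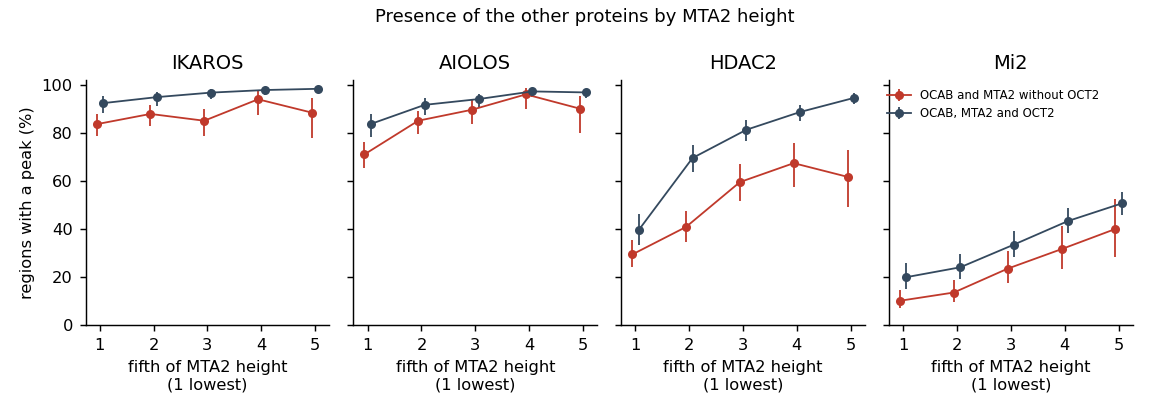
Share of regions with each of 4 proteins (vertical axis, percent, with 95% Wilson intervals) along 5 groups of MTA2 height, for members and for regions with OCAB, MTA2 and OCT2. HDAC2 was present in 29.4% of members and 39.5% of regions with OCT2 in the lowest group, and in 61.7% and 94.5% in the highest.

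Mi2 showed a like slope in both classes. It was present in 10.2% of members in the lowest group of MTA2 height and 40% in the highest, against 20% and 50.6% in regions with OCT2. IKAROS was present in 83.5% of members in the lowest group and 88.3% in the highest. OCAB height had no such rise. By OCAB height, the HDAC2 share of members was 47.7%, 51.9%, 47.7%, 35.8% and 39.6% from the lowest group to the highest. In regions with OCT2 it was 80%, 81.0%, 87.9%, 78.8% and 66.9%. The IKAROS share of members was 87.6% in the lowest group by OCAB height and 78.0% in the highest, against 94.3% and 95.8% in regions with OCT2. Within groups of OCAB height the differences from regions with OCT2 were -34.4 points for HDAC2, -18.9 for Mi2, -9.89 for IKAROS and -10.6 for AIOLOS.

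Other criteria moved the Mi2 and IKAROS differences by more than 1.5 times. With presence judged by peak centres within 100 bp of the OCAB centre, the difference was -4.34 points for Mi2 (-7.80 to -0.70) and -20.6 for IKAROS. With at least 8-fold over input required in every list, that for Mi2 was -10.9 points. With the 2000 highest peaks of each list, which left 67 members, the IKAROS difference was -16.3 points, and the Mi2 and AIOLOS intervals took in 0.

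Set against the 1785 regions of OCAB with neither MTA2 nor OCT2, members held each of the 4 other proteins more often. AIOLOS was present in 83.1% of members and 17.2% of these regions (65.9 points, 62.5 to 68.8), and IKAROS in 86.6% and 25.5% (61.1 points, 57.8 to 64.1). HDAC2 was present in 45.7% and 6.39% (39.3 points, 35.6 to 43.0) and Mi2 in 18.7% and 4.87% (13.9 points, 11.1 to 16.9). Median OCAB heights were 13.7 in members and 14.2 in the OCAB regions. Within 5 groups of OCAB height, cut anew over members and these OCAB regions together, the differences were 65.7 points for AIOLOS and 39.2 for HDAC2. The OCAB peaks differed in other measures. Their median fold over input was 10.1 in members and 13.3 in the OCAB regions, and their median input tags were 2.5 and 1.7. The differences were not taken at matched OCAB fold. None of the 4 proteins was found in 7.19% of members and 67.7% of the OCAB regions without MTA2 and OCT2. At p over input of at most 1e-10 in every list the HDAC2 difference was 19.1 points, with at least 8-fold over input it was 25.9, and with peak centres within 100 bp it was 25.7 for HDAC2 and 9.10 for Mi2.

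Set against the 21993 regions of MTA2 with neither OCAB nor OCT2, members again held each protein more often, by smaller amounts. The differences were 13.8 points for IKAROS (86.6% and 72.8%, interval 11.2 to 16.1) and 18.0 for AIOLOS (83.1% and 65.1%, 15.1 to 20.5). For HDAC2 the difference was 17.9 points (45.7% and 27.8%, 14.3 to 21.4), and for Mi2 it was 8.14 (18.7% and 10.6%, 5.52 to 11.1). At matched MTA2 height they were 10.3 points for IKAROS (7.86 to 12.8), 11.4 for AIOLOS (8.79 to 14.0), 11.0 for HDAC2 (7.63 to 14.4) and 5.73 for Mi2 (3.04 to 8.42). With peak centres within 100 bp the IKAROS difference was 4.07 points (0.025 to 7.95), at p of at most 1e-10 that of HDAC2 was 10.3, and with 2000 peaks per list the Mi2 interval took in 0 (4.17 points, -4.47 to 15.7).

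Every possible combination of the 4 other proteins occurred among the members, but 3 combinations held most of them. IKAROS with AIOLOS and neither HDAC2 nor Mi2 made up 246 members (31.6%), against 14.8% of regions with OCT2. IKAROS, AIOLOS and HDAC2 made up 238 (30.6%, against 42.5%), and all 4 proteins 92 (11.8%, against 31.8%). The first 2 combinations were about equally frequent among members, while in regions with OCT2 the one with HDAC2 was the more frequent.

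**Figure D3:**
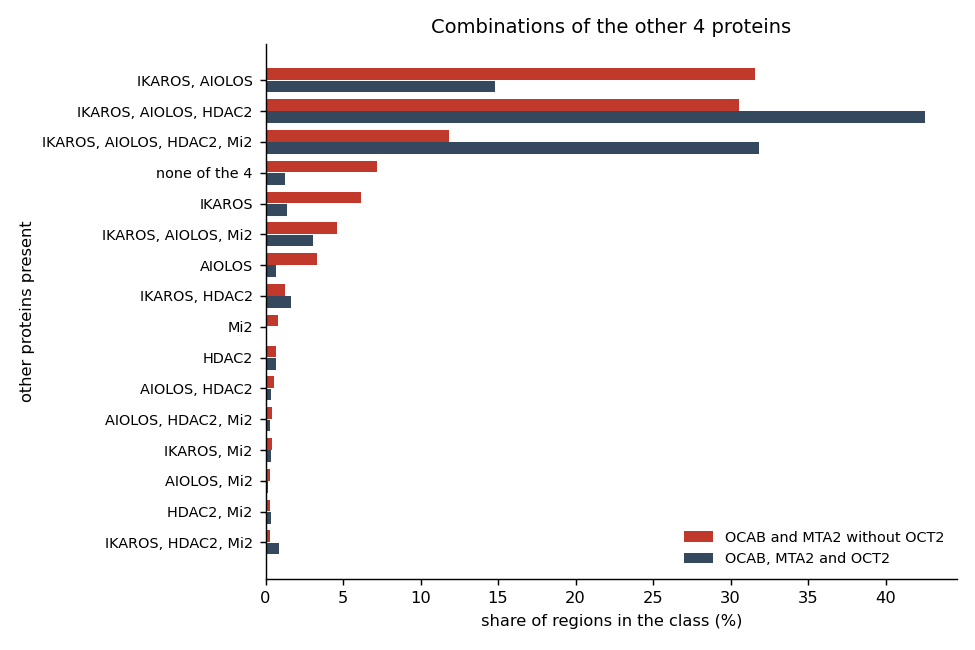
Share of each class (horizontal axis, percent) by the combination of IKAROS, AIOLOS, HDAC2 and Mi2 present, for members and for regions with OCAB, MTA2 and OCT2. IKAROS with AIOLOS alone made up 31.6% of members and 14.8% of regions with OCT2, and IKAROS, AIOLOS and HDAC2 30.6% and 42.5%.

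HDAC2 and Mi2 were more frequent where both factors of the IKAROS pair were present. Among the 612 members with both factors, HDAC2 was present in 53.9% (49.96 to 57.8) and Mi2 in 20.9% (17.9 to 24.3). Among the 167 members with fewer than both, HDAC2 was present in 15.6% (10.9 to 21.8) and Mi2 in 10.8% (6.93 to 16.4). By their combinations, regions with OCT2 also held HDAC2 and Mi2 more often with both factors than with fewer, so this was not particular to members. The shares were not taken at matched MTA2 height. Median MTA2 height was 21 in members with AIOLOS and 14 without, and 19.7 with IKAROS and 18.4 without. MTA2 peaks were higher in members with more of the 4 proteins, apart from the first step: the median MTA2 height was 15.35 with none, 13.6 with 1, 18.4 with 2, 21.5 with 3 and 30.2 with all 4. The median OCAB height over the same steps was 13.7, 14.8, 14.8, 13.1 and 13.95, with no direction.

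A group of 56 members (7.19%) held OCAB and MTA2 and none of the other 5 proteins, against 1.25% of regions with OCT2 that held none of the 4. None of the 4 was found in 19.2% of regions of MTA2 with neither OCAB nor OCT2. The members stood below these by 12.1 points (difference -12.1, -13.8 to -9.96). OCAB heights of the 56 members ran from 7.41 to 88.3 with a median of 13.7, the median of all members. Their MTA2 heights ran from 6.13 to 90.2 with a median of 15.35. The median distance between OCAB and MTA2 centres was 78 bp, also that of all members. Of these, 2 regions are named after their values were seen. The highest OCAB peak of the 56, at chr3:133291927-133292407, reached 88.3 beside an MTA2 peak of 12.3. The highest MTA2 peak, at chr2:26256819-26257193, reached 90.2 beside an OCAB peak of 7.41, the lowest OCAB height in the group.

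Where IKAROS was present, its peaks in members were lower than in regions with OCT2. IKAROS heights in members ran from 6.84 to 2590.9, with a median of 42.8 (order-statistic interval 39.8 to 44.9), against a median of 80 (75.7 to 84.3) with OCT2. Of the 675 IKAROS peaks in members, 20.7% (17.9 to 24.0) were above 80. AIOLOS medians were 38.6 (35.5 to 41.7) in members and 61.6 (58.5 to 65.4) with OCT2. HDAC2 medians were 15.6 (14.7 to 16.5) and 22 (22 to 22.9), and Mi2 medians 16.2 (15.1 to 17.8) and 18.9 (18.4 to 19.5). Of the 356 HDAC2 peaks in members, 17.4% (13.8 to 21.7) stood above the median of regions with OCT2.

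The gap in IKAROS, AIOLOS and HDAC2 height was smaller at matched MTA2 height, though for HDAC2 hardly so in the highest group. Within the 5 groups of MTA2 height, the ratio of the IKAROS median in members to that in regions with OCT2 was 0.854, 0.859, 0.864, 0.717 and 0.687 from the lowest to the highest, against 0.535 over all groups. For AIOLOS it lay between 0.864 and 0.981, against 0.627 over all groups. For HDAC2 it was 0.934, 0.891, 0.859, 0.838 and 0.713, against 0.709 over all groups. For Mi2, with 24 to 36 members per group, it was 1.10, 0.930, 0.955, 0.856 and 1.01, against 0.857 over all groups. Against regions of MTA2 with neither OCAB nor OCT2, members had higher IKAROS medians (42.8 and 32.5) and AIOLOS medians (38.6 and 29.3), and close HDAC2 medians (15.6 and 14.7).

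**Figure D4:**
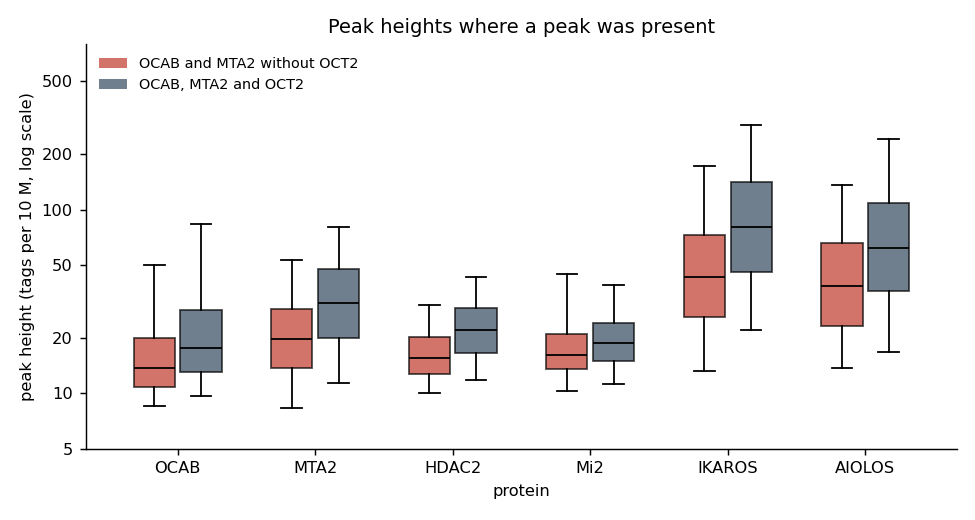
Peak height (vertical axis, tags per 10 M of the library, log scale) of 6 proteins in members and in regions with OCAB, MTA2 and OCT2, over regions where that protein had a peak. Boxes give the quartiles and median, whiskers the 5th and 95th percentiles; the medians for IKAROS are 42.8 and 80, and heights of different proteins come from different antibodies and are not compared.

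Within members, heights of MTA2, IKAROS and AIOLOS ranked together, and OCAB height stood apart. Spearman's rho was 0.861 for IKAROS with AIOLOS (612 regions), 0.648 for MTA2 with AIOLOS (647), 0.631 for MTA2 with IKAROS (675) and 0.52 for MTA2 with HDAC2 (356). OCAB height had a rho of 0.0748 with MTA2 (779), 0.123 with IKAROS, 0.0553 with AIOLOS, 0.238 with HDAC2 and 0.261 with Mi2. In regions with OCT2, rho was 0.734 for MTA2 with HDAC2 and 0.765 for MTA2 with IKAROS, and 0.0094 for OCAB with MTA2. These values run over regions of the same libraries and the same input, so the regions are not independent replicates.

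Peak centres placed MTA2 closer to the IKAROS pair than to OCAB. In members the median distance from the MTA2 centre was 42 bp to IKAROS (quartiles 21.5 and 95.5), 44 bp to AIOLOS, 78 bp to OCAB (34 and 141.5) and 78.5 bp to HDAC2. The OCAB centre lay a median of 83 bp from AIOLOS, 90 bp from IKAROS, 105.5 bp from HDAC2 and 114 bp from Mi2. Each distance ran over the regions with peaks of both proteins. The closeness of MTA2 and IKAROS was not particular to members. Their median distance was 43 bp in regions of MTA2 with neither OCAB nor OCT2 and 37 bp in regions with OCT2. In regions with OCT2 the OCAB and MTA2 centres were a median of 59 bp apart, and those of OCAB and OCT2 44 bp apart. OCAB and MTA2 centres lay within 50 bp of each other in 34.8% of members and 45.3% of regions with OCT2.

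**Figure D5:**
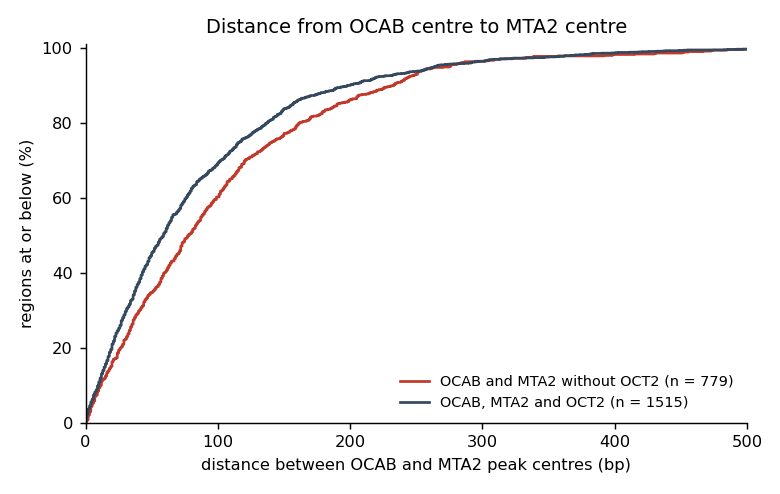
Cumulative share of regions (vertical axis, percent) by distance between the OCAB and MTA2 peak centres (horizontal axis, bp, shown to 500), for members and for regions with OCAB, MTA2 and OCT2. The median is 78 bp in members and 59 bp in regions with OCT2; the distance was within 50 bp in 34.8% of members and 45.3% of regions with OCT2.

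The 10 members with the highest OCAB peaks all held IKAROS and AIOLOS, 6 held HDAC2 and none held Mi2. At chr12:31478781-31479431 OCAB reached 335.6 from 589 tags, 101.87-fold over input, and its centre lay 12 bp from that of an MTA2 peak of 152.8. At chr12:14518215-14518632 OCAB reached 207.4, beside MTA2 at 15.8. At chr19:41304088-41304950 OCAB reached 192 and MTA2 21.5, but the centres lay 604 bp apart, a distance that no member exceeded. The first of these 3 had the highest MTA2 peak of the 10.

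At chr9:35732233-35732732 OCAB reached 171.5, MTA2 36.3 and AIOLOS 129.5. At chr1:32538201-32538614 OCAB reached 123.1 with its centre 18 bp from that of MTA2 (21.5). At chr3:52259382-52259905 OCAB reached 116.8 beside IKAROS at 176.2, the highest IKAROS peak of these 10. The remaining 4 were chr16:28935140-28935914, chr11:94964522-94964950, chr3:48594459-48594804 and chr11:3013563-3014097, with OCAB heights of 97.4 to 115.7 and MTA2 heights of 18.4 to 26.7. The median OCAB fold over input of all 10 was 46.2.

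Of the 10 members with the highest MTA2 peaks, 9 held IKAROS, 9 AIOLOS, 8 HDAC2 and 7 Mi2. At chr10:1613888-1614427 MTA2 reached 1065.8 and HDAC2 180.5, with no IKAROS or AIOLOS peak, and OCAB stood at 12, made of 23 tags at 6.96-fold over input and centred 281 bp away. At chr12:125399155-125399478 MTA2 reached 829.7, and OCAB 57.5 at 5.3-fold over input. At chr8:28747424-28747770 MTA2 reached 377.9, IKAROS 2590.9 and AIOLOS 3149.2, with OCAB at 18.2 from 32 tags. In 2 of these 3, OCAB stood below the upper quartile of members (19.9).

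At chr10:125919413-125919795 MTA2 reached 284.2 and IKAROS 1263.8, beside OCAB at 9.12 from 16 tags. The member with the highest OCAB peak came next by MTA2 height and was the only one in both lists of 10. The other 5 were chr17:79398727-79399195, chr19:45946786-45947206, chr1:228674715-228675007, chr1:6259615-6259961 and chr19:44617318-44617741, with MTA2 heights of 103.3 to 151.9 and OCAB heights of 13.1 to 29.6. The 5 members with the highest IKAROS peaks took in 3 of these regions, those at chr8:28747424-28747770, chr10:125919413-125919795 and chr19:44617318-44617741 (IKAROS 869.5). The other 2 were chr11:46722239-46722615 (IKAROS 680) and chr2:9283069-9283456 (IKAROS 518.8). All 5 held AIOLOS, HDAC2 and Mi2 and had OCAB heights of 9.12 to 18.2, against a median of 13.7 in all members.

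OCAB enrichment over input moved with MTA2 height. The median OCAB fold over input was 12.1 in members of the lowest group of MTA2 height and 8.48 in the highest, against 22.2 and 8.48 in regions with OCT2. The OCAB peak was under 8-fold over input in 20.4% of members in the lowest group, 48.3% of those in the highest and 7 of the 10 members with the highest MTA2 peaks. Median input tags under the OCAB peak were 2.5, 3.3 and 5.4 in the same order. In regions with OCT2 the OCAB peak was under 8-fold in 8.18% of the lowest group and 45.8% of the highest. Median input tags there were 1.7 and 4.1. The part of input signal in the overlap of low OCAB peaks with tall MTA2 peaks was not tested.

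Few members had another member within 10 kb. The median distance to the nearest other member was 736 kb, and 16 of 779 (2.05%) had one within 10 kb, forming 8 pairs. For the 1515 regions with OCT2, the median distance to another of their kind was 314 kb, and 5.02% had one within 10 kb. The classes differ in number, and whether members lay closer together or further apart than an even scatter was not tested. The distance from a member to the nearest merged region of any kind had a median of 3.11 kb. The share of OCAB and MTA2 regions that were members was also taken by chromosome. It was 57.9% on X (11 of 19, 36.3 to 76.9), 43.75% on chromosome 9 (34.3 to 53.7) and 43.4% on chromosome 19 (35.3 to 51.8), but 22.7% on chromosome 4 (14.7 to 33.3) and 24.8% on chromosome 7 (17.6 to 33.6). These 5 of 23 chromosomes are named because their interval left out the overall share of 33.96%. No correction was made for looking at 23 intervals. The limits of 33.3 on chromosome 4, 33.6 on chromosome 7 and 34.3 on chromosome 9 lay close to that share. As OCT2 chose the members, these shares are a description.

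Shares of the other proteins were also taken in members near an OCT2 peak and in the rest. As OCT2 peaks chose the members, these shares are a description, and no difference between them was called. The intervals overlapped for HDAC2, Mi2 and AIOLOS and did not for IKAROS. No correction was made for looking at several proteins. Among the 137 members with an OCT2 peak within 10 kb, HDAC2 was present in 44.5% (36.5 to 52.9) and Mi2 in 18.98% (13.3 to 26.4). Among the other 642, the shares were 46.0% (42.1 to 49.8) and 18.7% (15.9 to 21.9). IKAROS was present in 76.6% (68.9 to 82.9) of the members near OCT2 and 88.8% (86.1 to 91.0) of the rest, and AIOLOS in 83.9% and 82.9%.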

How the data were processed

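The deposited data are 7 HOMER peak lists on hg19, 1 per antibody with no pooling recorded; the submitters' processing notes name HOMER 4.9.1, Bowtie2 2.3.2.2 and CASAVA 1.8.2, or CASAVA 1.4 for HDAC2. Libraries were amplified over 15 PCR cycles, per the labels' protocols, and reads carry no molecular identifier. Per the file headers, HDAC2 peaks needed 4-fold over input and a p-value of at most 0.0001; for the other antibodies the sources used here give no calling limits, nor whether 1 input served every list. Their highest deposited p-value over input was 8.92e-10. HDAC2 was the shallowest library with the loosest limit, so its presence calls are not on the same footing. Height is the deposited signal of tags per 10 M. Tags per peak are deposited as counts, except for MTA2 and IKAROS, where the authors scaled them to the input. The deposited fold columns are ratios to input. The deposited fraction of tags near the peak centre and the score the authors deposited were not used for results.

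Peaks sharing at least 1 bp were merged with pandas 2.3.3 and numpy 2.4.6 in Python 3.11.15. Where a region held 2 peaks of a protein, the higher gave its height and centre. Depth is tags over height in tall peaks, or for MTA2 and IKAROS the step between low heights. Shares have Wilson intervals and their differences Newcombe intervals; a difference was called where its interval left out 0. Code was tested on simulated peaks. Members, regions named and comparisons were chosen with earlier results of these data known. Named regions are the 10 with the highest OCAB peak, the 10 with the highest MTA2 peak and the 5 with the highest IKAROS peak, at 4-fold or more over input in OCAB and MTA2, on chromosomes 1 to 22 and X. The gene tables at hand were on another build than the peaks, so no gene, promoter or octamer sequence was assigned. Alternatives were stricter fold, a common p-value limit, equal list lengths, other overlap criteria, an OCT2 distance of 1000 bp, chromosomes 1 to 22 and X, and strata of height.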

Additional observations from a re-analysis of the deposited data

How the results depend on the processing

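The count of members and 12 differences of shares were recomputed under up to 10 alternative settings, giving 120 values. Of these, 116 kept their direction and their side of the limit (counts within 1.5 times). The exceptions all came with the 2000 highest peaks of each list. The count fell to 67 members, and 3 differences no longer left out 0: AIOLOS and Mi2 against regions with OCT2 (-8.81 and -9.43 points) and Mi2 against MTA2 regions with neither OCAB nor OCT2 (4.17 points). With 67 members the intervals are wide, since fewer regions enter. Members numbered 553 to 830 under the other settings. The setting of chromosomes 1 to 22 and X kept all 779 members and all 1515 regions with OCT2. Its values could therefore hardly move, and they are among the 116. No paired analysis was possible because each antibody had 1 library, and for the same reason no library could be left out. Low peaks limit the lists: 15.0% of members had an OCAB height within the lowest 10% of the OCAB list (9.69 or less).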
